A study of Mus musculus with 6 samples.

Results

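Sgk1 and 8 further genes of aldosterone-regulated sodium uptake were followed in the colon of BALB/c mice, an inbred laboratory strain, after 5-fluorouracil with or without berberine. The 9 genes are the kinase Sgk1, the epithelial sodium channel subunits Scnn1a, Scnn1b and Scnn1g, the mineralocorticoid receptor Nr3c2, the corticosteroid dehydrogenase Hsd11b2, the ubiquitin ligase Nedd4l, the sodium pump subunit Atp1b1 and the deubiquitinase Usp2. They were taken by gene symbol and are 9 of the 30777 genes measured, and all 9 were among the 20101 expressed highly enough to be tested. Sgk1 heads the set because it was lower with berberine in an earlier reading of the same comparison, so its difference is given as a description and not as a test. The other members were named for their place in the pathway, with the results of these libraries already known.

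RNA from whole colon tissue was sequenced in 6 libraries. In the 5-Fu group, 3 libraries came from mice given 5-fluorouracil, a chemotherapy drug that resembles a pyrimidine and harms dividing cells, those of the gut lining included. In the 5-Fu+BBR group, 3 came from mice given 5-fluorouracil and berberine, a plant alkaloid. Both groups thus share the 5-fluorouracil treatment, and no untreated colon is analysed here. The labels give no age, sex, dose or time, and leave it unsaid if each sample is a different animal, so every p-value reflects only how these samples spread. Tissue is labelled as colon with no segment, and library totals ran from 53824752 to 63831168 deposited estimated counts.

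Aldosterone, the adrenal hormone that conserves salt, enters cells of the distal colon and kidney collecting duct and binds the mineralocorticoid receptor. The dehydrogenase Hsd11b2 inactivates glucocorticoids in the same cells and so keeps them off that receptor. Among the early genes the hormone induces is Sgk1, a kinase that phosphorylates Nedd4l and so slows the removal of the epithelial sodium channel from the cell surface. Sodium enters through the channel at the luminal side and leaves through the sodium pump at the other. Sgk1 is also induced by glucocorticoids, by cell shrinkage and by growth factors, and is made in many cell types.

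Sgk1 (ENSMUSG00000019970, chromosome 10, 21882184 to 21999893 of GRCm38, plus strand) is annotated in the deposited table with 8 transcripts. RefSeq's table of promoters, on GRCm38.p6, holds 6 starts for it. They are shown here because a palindrome of AGAACA and TGTTCT with any 3 bases between them, the textbook binding sequence of the glucocorticoid and mineralocorticoid receptors, lies before one of them. The windows below are the first 100 bases of the 300-base entry at the fifth start, chr10:21993640-21993739, and of that at the sixth and last start, chr10:21994416-21994515, both on the plus strand. Capitals mark matches to AGAACA on either strand, read as TGTTCT on the other, and to the clock-factor sequence CACGTG.
Sgk1 start 5: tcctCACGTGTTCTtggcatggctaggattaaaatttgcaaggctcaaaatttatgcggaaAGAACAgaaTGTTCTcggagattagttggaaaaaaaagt
Sgk1 start 6: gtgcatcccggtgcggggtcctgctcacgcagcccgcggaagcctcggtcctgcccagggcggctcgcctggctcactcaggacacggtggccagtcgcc
The match to the palindrome lies at chr10:21993701-21993715, which is 189 bases before the fifth start and 965 bases before the sixth. It lies in no exon of the 13 Sgk1 transcripts in GENCODE M21. In the same window CACGTG overlaps a further TGTTCT by 2 bases.

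Of 32851 promoter entries of this length in the mouse table, 3 hold the full palindrome on either strand, which is 0.00913%. A single AGAACA is common and occurs in 19.0% of the entries, and CACGTG in 7.15%. Entries were matched for 6 of the 9 members (Sgk1, Scnn1b, Scnn1g, Nr3c2, Atp1b1 and Usp2). They number 11, of which 6 belong to Sgk1, so Sgk1 had the most windows to search. Among these genes Sgk1 is the 1 with AGAACA, with the palindrome or with CACGTG. The sequence TTATGTAA, bound by the clock output factor Dbp, was found in 0 of the members' entries and in 0.938% of all entries. A match is a description of letters in a window and does not show that a factor binds there.

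Sgk1 was lower in every 5-Fu+BBR library than in any 5-Fu library. Its level, in CPM (counts as a share of the scaled library size), was 196, 134 and 150 in replicates 1 to 3 of 5-Fu, against 58.8, 54.5 and 61.0 with berberine. The 5-Fu libraries spanned a 1.47-fold range with replicate 1 highest, while those given berberine lay within 1.12-fold of each other. Sgk1 was 2.75-fold lower on average, a log2 fold change (5-Fu+BBR minus 5-Fu, ± SE) of -1.46 ± 0.15. By edgeR's quasi-likelihood test it had the ninth smallest p of all genes (adjusted p = 0.0228), the value by which it was picked. Without 5-Fu replicate 1, 5-Fu+BBR replicate 2 or 5-Fu+BBR replicate 3 its log2 fold change was -1.29, -1.42 or -1.49 and its adjusted p by edgeR 0.0814, 0.264 or 0.0601. Leaving out any other library kept the adjusted p below 0.05.

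**Figure D1:**
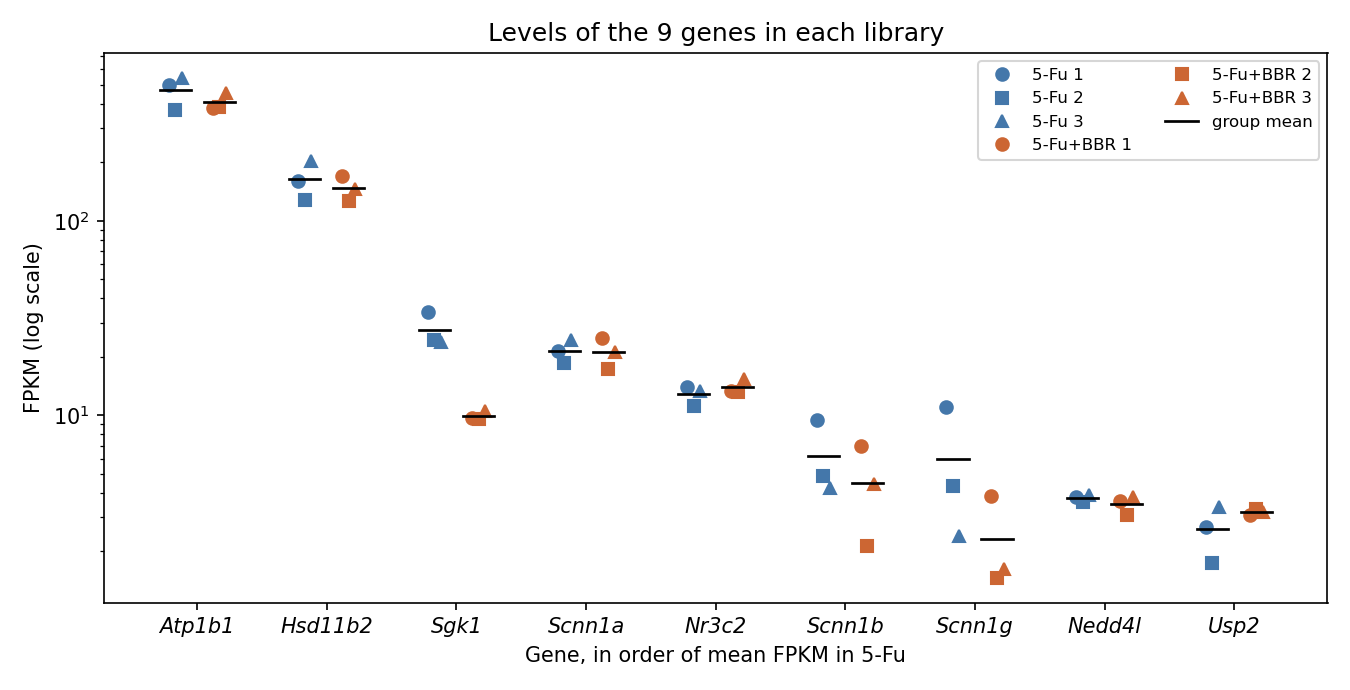
FPKM (fragment counts scaled to transcript length and library size, log axis) of the 9 genes in each of the 6 libraries; blue symbols are 5-Fu, orange symbols 5-Fu+BBR, the symbol shape is the replicate number and black bars are group means. Sgk1 is the gene whose groups do not overlap, at 23.8 to 33.9 in 5-Fu and 9.62 to 10.6 in 5-Fu+BBR.

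Across the 9 members, Sgk1 was the 1 gene called at an adjusted p under 0.05, and it was lower, beside 0.0746% of all genes tested (15 of 20101), 0.0149% lower and 0.0597% higher. Because Sgk1 was picked on this comparison, nothing is read from that count. Groups did not overlap for 1 of 9 members, again Sgk1, beside 21.9% of all genes, 9.68% lower and 12.3% higher. At an unadjusted p under 0.05 the count was also 1 of 9, beside 15.6% of all genes, 6.08% lower and 9.48% higher. Log2 fold changes were negative for 7 members and positive for 2 (Nr3c2 and Usp2), beside 49.3% negative over all genes. Their median was -0.17, or -0.14 over the 8 genes other than Sgk1, beside 0.01 over all genes tested.

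**Figure D2:**
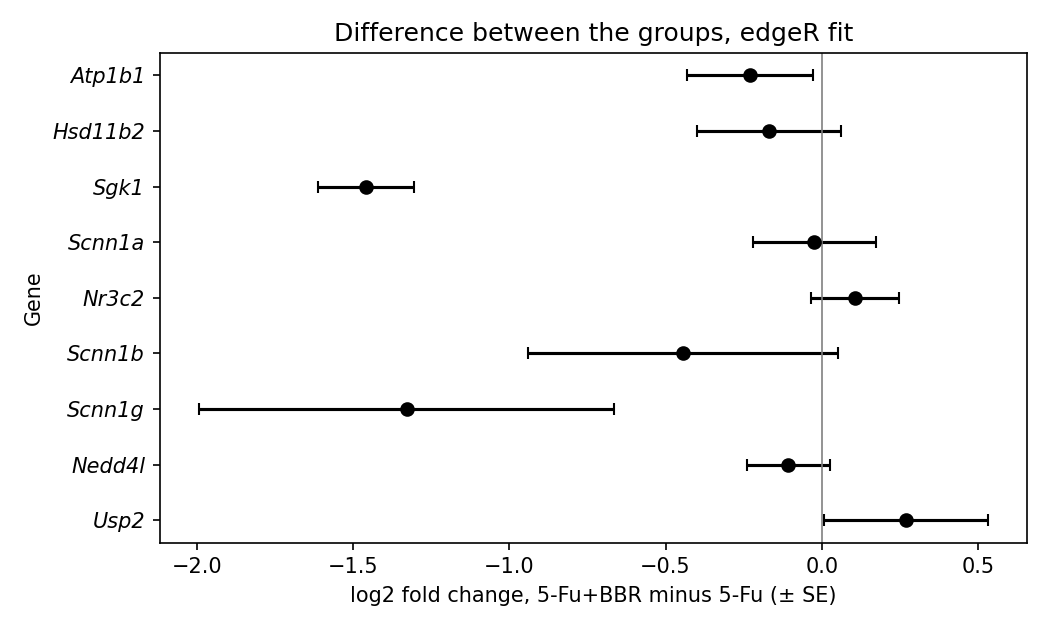
Log2 fold change (5-Fu+BBR minus 5-Fu) of each member with its SE from the edgeR fit over all genes, 3 libraries per group. Sgk1 lies at -1.46 with a narrow error, Scnn1g at -1.33 with an SE of 0.66, and the other 7 genes between -0.44 and 0.27.

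The channel subunits differed among themselves in how much they varied between libraries. Scnn1a (ENSMUSG00000030340, chromosome 6, 125320659 to 125344933) encodes the alpha subunit, which the channel needs in order to conduct. It was at 104, 85.7 and 128 CPM in replicate order in 5-Fu and, with berberine, at 128, 82.7 and 102 CPM. The groups overlapped fully and the log2 fold change was -0.02 ± 0.20 (adjusted p = 0.970, edgeR).

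Scnn1b (ENSMUSG00000030873, chromosome 7, 121865038 to 121918514) encodes the beta subunit and Scnn1g (ENSMUSG00000000216, chromosome 7, 121734479 to 121768475) the gamma subunit. These subunits are the ones that aldosterone is known to induce in the colon. Scnn1b was at 29.6, 14.3 and 14.4 CPM without berberine and at 22.6, 6.53 and 13.7 CPM with it, in the order of the replicates. Replicate 1 was the highest of each group, and the log2 fold change was -0.44 ± 0.50 (adjusted p = 0.717, edgeR). Scnn1b overlaps the gene Cog7 on the other strand, and the sources used here do not say if strand was used in counting.

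Scnn1g was at 39.1, 14.6 and 9.22 CPM without berberine and at 14.2, 5.08 and 5.70 CPM with it. Its log2 fold change of -1.33 was close in size to that of Sgk1, with an SE of 0.66 (adjusted p = 0.403, edgeR). Replicate 1 was again the highest of each group, and 5-Fu+BBR replicate 1 lay above 5-Fu replicate 3, so the groups overlapped. Within 5-Fu the levels spanned a 4.24-fold range. Without 5-Fu replicate 1 the log2 fold change of Scnn1g was -0.51, and without 5-Fu+BBR replicate 1 it was -1.95.

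The subunit proportions, compared per transcript length, varied with the same libraries. The FPKM of Scnn1g was 51.9%, 23.5% and 9.92% of that of Scnn1a in 5-Fu replicates 1 to 3 and 15.4%, 8.47% and 7.68% in 5-Fu+BBR. For Scnn1b the share of Scnn1a was 44.6%, 26.2% and 17.5% in 5-Fu and 27.7%, 12.4% and 21.0% in 5-Fu+BBR. The alpha transcript was thus more abundant than either partner in all 6 libraries, and both ratios overlapped between the groups.

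**Figure D3:**
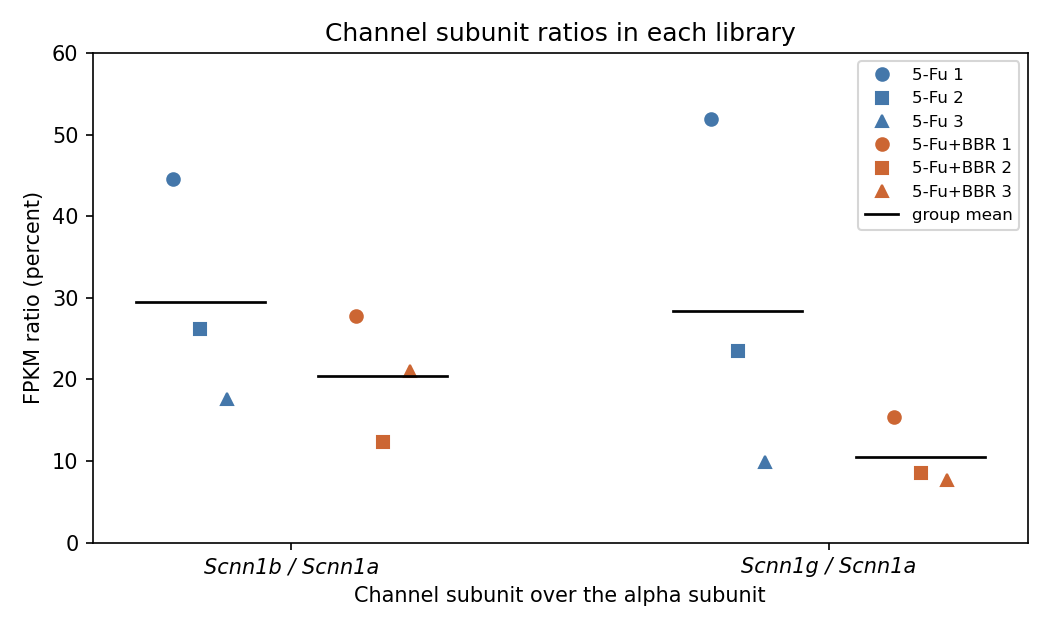
FPKM of Scnn1b and of Scnn1g as a percent of the FPKM of Scnn1a in each library; blue is 5-Fu, orange 5-Fu+BBR, shapes are replicate numbers and bars are group means. 5-Fu replicate 1 is the highest point for both ratios, at 44.6% and 51.9%.

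The receptor and the enzyme that guards it showed no separation of the groups. Nr3c2 (ENSMUSG00000031618, chromosome 8, 76899442 to 77245012) was at 107, 81.1 and 111 CPM without berberine and at 106, 98.3 and 117 CPM with it (log2 fold change 0.11 ± 0.14, adjusted p = 0.768, edgeR). Hsd11b2 (ENSMUSG00000031891, chromosome 8, 105518755 to 105523988) was at 348, 263 and 477 CPM without berberine and at 383, 267 and 317 CPM with it. Its log2 fold change was -0.17 ± 0.23 (adjusted p = 0.772, edgeR), and the lowest library of each group was replicate 2.

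Nedd4l, the ligase that marks the channel for removal and that Sgk1 inhibits (ENSMUSG00000024589, chromosome 18, 64887705 to 65215069), had the narrowest range of the members within 5-Fu, 1.25-fold. It was at 87.4, 77.9 and 97.2 CPM without berberine and at 87.3, 69.2 and 87.2 CPM with it (log2 fold change -0.11 ± 0.13, adjusted p = 0.743, edgeR). The FPKM of Sgk1 was 8.89, 6.80 and 6.10 times that of Nedd4l in 5-Fu and 2.67, 3.12 and 2.77 times in 5-Fu+BBR. That ratio follows Sgk1, since the denominator hardly moved.

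Usp2 (ENSMUSG00000032010, chromosome 9, 44067021 to 44095627) removes ubiquitin, including from the channel, and is a known target of the circadian clock. It was at 15.3, 9.39 and 20.9 CPM without berberine and at 18.2, 18.4 and 18.2 CPM with it. The berberine libraries were nearly equal and lay inside the 2.23-fold range of 5-Fu (log2 fold change 0.27 ± 0.26, adjusted p = 0.675, edgeR).

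Atp1b1 (ENSMUSG00000026576, chromosome 1, 164437109 to 164458355), the beta subunit that brings the sodium pump to the membrane, was the most abundant member. It was at 1812, 1278 and 2134 CPM without berberine and at 1440, 1366 and 1647 CPM with it (log2 fold change -0.23 ± 0.20, adjusted p = 0.633, edgeR). Atp1b1 overlaps Nme7 on the other strand.

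Per transcript length, the 9 genes kept a broad order in which Sgk1 and Scnn1g changed place. In 5-Fu the mean FPKM (± SD, n = 3) was 471 ± 88.2 for Atp1b1, 164 ± 37.4 for Hsd11b2, 27.4 ± 5.64 for Sgk1 and 21.4 ± 2.84 for Scnn1a. Below them came Nr3c2 at 12.9 ± 1.46, Scnn1b at 6.22 ± 2.88, Scnn1g at 5.95 ± 4.55, Nedd4l at 3.77 ± 0.163 and Usp2 at 2.60 ± 0.825. Neighbours whose libraries overlapped were Sgk1 with Scnn1a, Scnn1b with Scnn1g and Scnn1g with Nedd4l. In 5-Fu+BBR Sgk1 was number 5, at 9.98 ± 0.523, below Scnn1a at 21.2 ± 3.90 and Nr3c2 at 14.0 ± 1.25, and overlapped with neither. Scnn1g stood last at 2.32 ± 1.34, and the libraries of Scnn1b and Nedd4l, of Nedd4l and Usp2, and of Usp2 and Scnn1g overlapped.

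Other genes of the pathway were read from lists written down by role. FXYD regulators are small membrane proteins that tune the pump. Of 12 pump subunits and FXYD regulators, 0 passed an adjusted p under 0.05, beside 0.0746% of all genes. Groups did not overlap for 3 that were lower and 3 that were higher, beside 9.68% and 12.3% of all genes. The list median was 0.22 on the log2 scale. Fxyd4, a corticosteroid-induced FXYD protein of colon and kidney also called CHIF, had the largest difference of the list. It was at 32.5, 9.17 and 9.77 CPM without berberine and at 1.81, 0.687 and 1.05 CPM with it, and all berberine libraries lay far below those without it. Its level was 14.5-fold lower (log2 fold change -3.85 ± 0.66, adjusted p = 0.103, edgeR). DESeq2, which called 1226 genes in all, gave Fxyd4 an adjusted p of 7.35e-11, while limma-voom gave 0.148. Without 5-Fu replicate 1, the highest of its group, the log2 fold change was -3.00.

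Fxyd5 was at 17.1 ± 3.84 against 26.9 ± 2.35 CPM (adjusted p = 0.163, edgeR). Its groups did not overlap, in the direction opposite to Fxyd4. Fxyd2, the kidney pump regulator, was named after its values were seen. It was at 0.558 CPM in 5-Fu+BBR replicate 1 and at 7.36 and 7.97 CPM in replicates 2 and 3, beside 0.834 to 1.06 CPM in 5-Fu.

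Corticosteroid-induced genes had no common direction. Of 11 such genes, 0 passed, beside 0.0746% of all genes, and the median was -0.04. Log2 fold changes were negative for 6 and positive for 5, beside 49.3% negative over all genes. Fkbp5, a chaperone of steroid receptors and a standard glucocorticoid target, was at 223, 118 and 220 CPM without berberine and at 75.7, 71.1 and 61.6 CPM with it. The groups did not overlap, with a log2 fold change of -1.43 ± 0.24 (adjusted p = 0.0920, edgeR, and 0.0436 with libraries scaled to pan-epithelial markers). Dusp1, a phosphatase of MAP kinases, and Errfi1, an inhibitor of the EGF receptor, lay the other way without overlap, at 17.3 ± 2.76 against 26.3 ± 5.84 CPM and 52.6 ± 5.36 against 71.4 ± 11.4 CPM (adjusted p = 0.212 for both, edgeR).

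The metallothionein Mt2 and the transcription factor Zbtb16, named after their values were seen, had means of 114 ± 96.9 against 25.6 ± 10.1 CPM and of 11.8 ± 7.22 against 5.10 ± 1.32 CPM (adjusted p = 0.229 and 0.282, edgeR). The groups of Mt2 did not overlap and those of Zbtb16 did. Tsc22d3, which encodes the glucocorticoid-induced leucine zipper that acts with Sgk1 on the channel, and Per1, also named afterwards, had overlapping groups and log2 fold changes of -0.14 and -0.04. RefSeq promoter entries were matched for 9 of the 11 genes, of which 1 (Tsc22d3) holds AGAACA and 0 hold the palindrome. For 4 of the 11 genes 5-Fu replicate 1 was the highest of all libraries: Fkbp5, Zbtb16, Mt2 and Per1, the last nearly level with 5-Fu+BBR replicate 1. It was highest for 3 of 9 members (Sgk1, Scnn1b and Scnn1g) and 2 of 12 pump and FXYD genes, Fxyd4 among them. In the list of Sgk1 kinases and partners it was highest for 9 of 19. The share over all genes is not given here, so nothing is read from these counts.

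**Figure D4:**
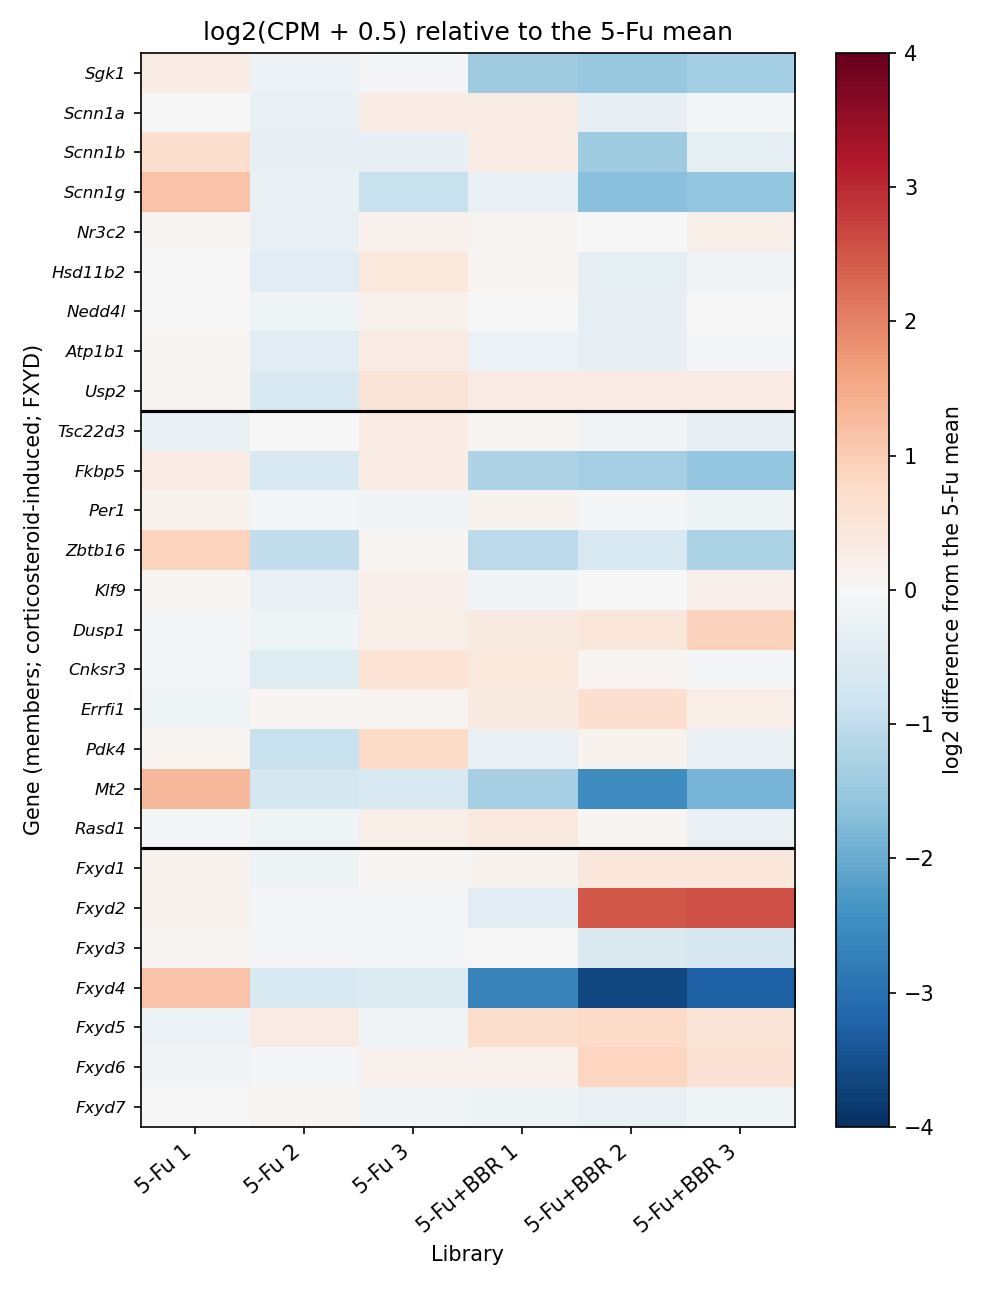
Each cell is log2(CPM + 0.5) of a gene in a library minus the mean of the 5-Fu libraries; rows are the 9 members, 11 corticosteroid-induced genes and 7 FXYD genes, separated by black lines, and columns are the 6 libraries. Sgk1, Scnn1g, Atp1b1, Fkbp5, Zbtb16, Mt2, Fxyd3, Fxyd4 and Fxyd7 are below 0 in all 5-Fu+BBR libraries, with Fxyd4 lowest at -3.65 in replicate 2.

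Log2 fold changes of the kinases and partners of Sgk1 were negative for 14 and positive for 5, beside 49.3% negative over all genes. Of 19 genes in the list, 0 passed, beside 0.0746% of all genes, and the median was -0.11. Groups did not overlap for 5 that were lower and 2 that were higher, beside 9.68% and 12.3% of all genes. Pdpk1, the kinase that activates Sgk1, was at 87.9 ± 2.65 against 68.6 ± 8.39 CPM without overlap (adjusted p = 0.212, edgeR). The related kinase Sgk2 was at 83.3 ± 26.1 against 51.1 ± 8.84 CPM with overlapping groups (adjusted p = 0.255, edgeR). Sgk3 read 5.12, 8.04 and 3.55 CPM without and 9.35, 9.80 and 7.36 CPM with berberine, and its groups overlapped too (adjusted p = 0.348, edgeR). Differences of the 3 kinases of the family thus had log2 fold changes of -1.46 for Sgk1, -0.70 ± 0.25 for Sgk2 and 0.66 ± 0.31 for Sgk3.

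Proteases that activate the channel by cutting it, with their inhibitors, numbered 8 tested of 9 listed. Of these 0 passed, beside 0.0746% of all genes (median -0.12). Tmprss2 was at 1005 ± 96.9 against 718 ± 89.4 CPM without overlap (adjusted p = 0.200, edgeR). St14, which encodes matriptase, and its inhibitor Spint2 had overlapping groups and log2 fold changes of -0.23 and 0.16.

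The glucocorticoid receptor and enzymes of local steroid synthesis were matched for 7 of 9 listed genes, and 6 were tested. Of these 0 passed, beside 0.0746% of all genes (median 0.07). H6pd, which supplies cofactor for glucocorticoid activation, and Nr5a2, a regulator of intestinal steroid synthesis, had overlapping groups and log2 fold changes of -0.28 and 0.46. Cyp21a1, an adrenal steroid hydroxylase, had 13, 74 and 12 counts in 5-Fu and 0 in each 5-Fu+BBR library. Taking 12 counts in the whole group as the floor, this is at least 8.08-fold lower, a bound that covers counting error only (adjusted p = 0.127, edgeR). Without 5-Fu replicate 2, which holds most of these counts, the bound is 3.33-fold. Cyp21a1 met the expression filter only through its 5-Fu counts, so these values are a description and not a test.

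Other routes of sodium, potassium and chloride transport (14 genes) had 0 genes that passed, beside 0.0746% of all genes. They had 0 whose groups did not overlap, beside 21.9% of all genes. Log2 fold changes were positive for 12 and negative for 2 (median 0.18), beside 49.3% negative over all genes. Slc9a2, a sodium-proton exchanger, was at 169 ± 67.8 against 242 ± 25.0 CPM. Kcne3, a potassium channel subunit, was at 60.2 ± 6.35 against 88.7 ± 30.3 CPM and the chloride-loading cotransporter Slc12a2 at 333 ± 81.8 against 264 ± 18.6 CPM.

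The WNK pathway, which sets salt transport in the distal nephron, had 0 of 8 genes that passed, beside 0.0746% of all genes (median 0.07). Oxsr1, a kinase activated by WNK kinases, was at 98.0 ± 2.66 against 81.4 ± 6.67 CPM and Wnk4 at 27.4 ± 4.14 against 33.5 ± 1.69 CPM, neither with overlap (adjusted p = 0.266 and 0.355, edgeR). Slc12a3, the sodium chloride cotransporter of the kidney, was at 0.947 CPM in 5-Fu+BBR replicate 1 and at 7.09 and 5.21 CPM in replicates 2 and 3, beside 0.414 to 1.10 CPM in 5-Fu.

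The osmotic response, 1 of the other known inducers of Sgk1, had 0 of 6 genes that passed, beside 0.0746% of all genes (median -0.06). The inositol carrier Slc5a3 was at 81.1 ± 39.5 against 42.8 ± 13.6 CPM, while Nfat5, the factor that drives this response, and its target aldose reductase (Akr1b3) had log2 fold changes of 0.30 and 0.21. For Slc5a3, Nfat5 and Akr1b3 the groups overlapped.

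Likeness to Sgk1 was measured as the root mean square difference in log2 CPM over the 6 libraries, each gene centred on its own mean, among 9931 other genes averaging 10 CPM or more. The closest were Gda (0.24), E2f2 (0.24), Fkbp5 (0.24), Gsta4 (0.28) and Ttyh2 (0.28). Gda, which encodes guanine deaminase, was at 343 ± 85.6 against 113 ± 23.2 CPM and E2f2, a cell cycle transcription factor, at 60.9 ± 7.04 against 29.4 ± 1.38 CPM. The glutathione transferase Gsta4, 1 of a family of similar copies among which reads can be split, was at 135 ± 25.1 against 60.3 ± 14.9 CPM and Ttyh2, a chloride channel family member. Fkbp5 is the 1 gene of the corticosteroid list among these 5, and no other member of the set was among them. The measure uses the same libraries that chose Sgk1 and says nothing of a shared cause.

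Clock genes cross this set through Usp2. Of 14 listed, 2 rose (Dbp and Nr1d1, log2 fold changes 1.48 ± 0.15 and 1.42 ± 0.17, adjusted p = 0.0228 and 0.0495, edgeR), beside 0.0597% of all genes, while Usp2 had a log2 fold change of 0.27 ± 0.26. Groups did not overlap for 4 that were lower (Nfil3, Cry1, Arntl and Clock) and 7 that were higher, beside 9.68% and 12.3% of all genes. The adjusted p of Nr1d1 by edgeR was 0.0530 with DESeq2 size factors, and 0.183, 0.0519, 0.279 and 0.0900 without 5-Fu replicate 1 or 5-Fu+BBR replicate 1, 2 or 3. That of Dbp was 0.0838, 0.219 and 0.0501 without 5-Fu replicate 1 or 5-Fu+BBR replicate 2 or 3. Across all 17 alternatives Dbp passed in 12 and Nr1d1 in 11, so not every alternative in which they failed is listed.

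Markers of the cell types in the tissue were read beside these values. All 11 pan-epithelial markers were present and summed to 16508 to 21382 CPM in 5-Fu and 15642 to 18590 CPM in 5-Fu+BBR. With libraries scaled so that these markers had equal means, the log2 fold change of Sgk1 was -1.42 ± 0.17 (adjusted p = 0.0200, edgeR). The 7 surface colonocyte markers summed to 3408 to 6675 against 5036 to 6197 CPM. Of the 6 posterior Hox genes, which mark the hind end of the gut, the sum was 600 to 741 against 514 to 696 CPM, so this position measure overlapped as well. Fewer cells of a type and less RNA per cell cannot be told apart in these bulk samples.

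Summed markers of smooth muscle, adipocytes, lymphocytes, macrophages, and enteric neurons and glia did not overlap between the groups. The 6 macrophage markers summed to 157 to 183 CPM in 5-Fu against 189 to 240 CPM in 5-Fu+BBR. The 7 markers of enteric neurons and glia had lower sums with berberine, at 35.2 to 36.6 against 21.5 to 30.6 CPM. Ret was the largest part of that sum, with means of 19.5 ± 3.41 against 10.5 ± 3.14 CPM (log2 fold change -0.89). Of the 7 markers, 3 had negative and 4 had positive log2 fold changes (median 0.05). The lower sums thus follow Ret and are not shared by the list as a whole. Within this list groups did not overlap for 1 gene that was lower (Ret) and 1 that was higher (S100b), beside 9.68% and 12.3% of all genes. The 6 smooth muscle markers summed to 2199 to 2864 against 4086 to 4655 CPM, the 5 adipocyte markers to 16.4 to 27.0 against 62.8 to 112 CPM and the 7 lymphocyte markers to 31.6 to 105 against 146 to 207 CPM. The 6 fibroblast markers summed to 458 to 2019 against 1269 to 1868 CPM and the 5 endothelial markers to 54.3 to 107 against 76.9 to 97.9 CPM, both with overlap. The 6 neutrophil markers summed to 296 to 482 against 248 to 398 CPM, also with overlap. Most of that sum was Ly6g, at 412, 244 and 436 against 377, 289 and 245 CPM. Within the rest S100a8 was at 35.8, 32.7 and 2.70 against 9.20, 0.253 and 0.144 CPM. Adipoq and Plin1 were at 0 in 5-Fu replicates 1 and 3, and Lep in all 5-Fu libraries. The part of these cell types in the lower Sgk1 was not tested.

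Kidney genes bear on this set because the collecting duct uses the same channel, receptor and enzyme. The 10 collecting duct and distal tubule markers summed to 2.13 to 3.57 CPM in 5-Fu and to 4.14, 14.2 and 11.4 CPM in 5-Fu+BBR replicates 1 to 3. Of these markers 4 were at 0 in at least 1 library, and Aqp2, the water channel that defines the duct, was at 0.0595 to 0.234 CPM in 5-Fu and at 0.0507 and 0.669 CPM in berberine replicates 1 and 2, with replicate 3 highest. The 10 markers of other kidney segments summed to 46.8 to 62.5 CPM in 5-Fu and to 39.6, 201.5 and 205 CPM in 5-Fu+BBR. Most of the 5-Fu sum was Nphs1, at 34.0, 28.7 and 40.9 CPM against 19.1, 23.2 and 30.6 CPM in 5-Fu+BBR. Of the 9 tested, Nphs1 was the 1 with a negative log2 fold change (-0.51), and 8 were positive. The low sum of 5-Fu+BBR replicate 1 thus follows Nphs1. Kap, an abundant gene of the proximal tubule, was present in all libraries, at 7.89 to 10.5 CPM in 5-Fu and at 10.01, 109 and 105 CPM in 5-Fu+BBR. Replicate 1 alone against the 5-Fu libraries gave Sgk1 a log2 fold change of -1.45 (adjusted p = 0.559, edgeR) and Fxyd4 one of -3.25 (adjusted p = 0.807, edgeR). The part of kidney transcripts in these differences was not tested.

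**Figure D5:**
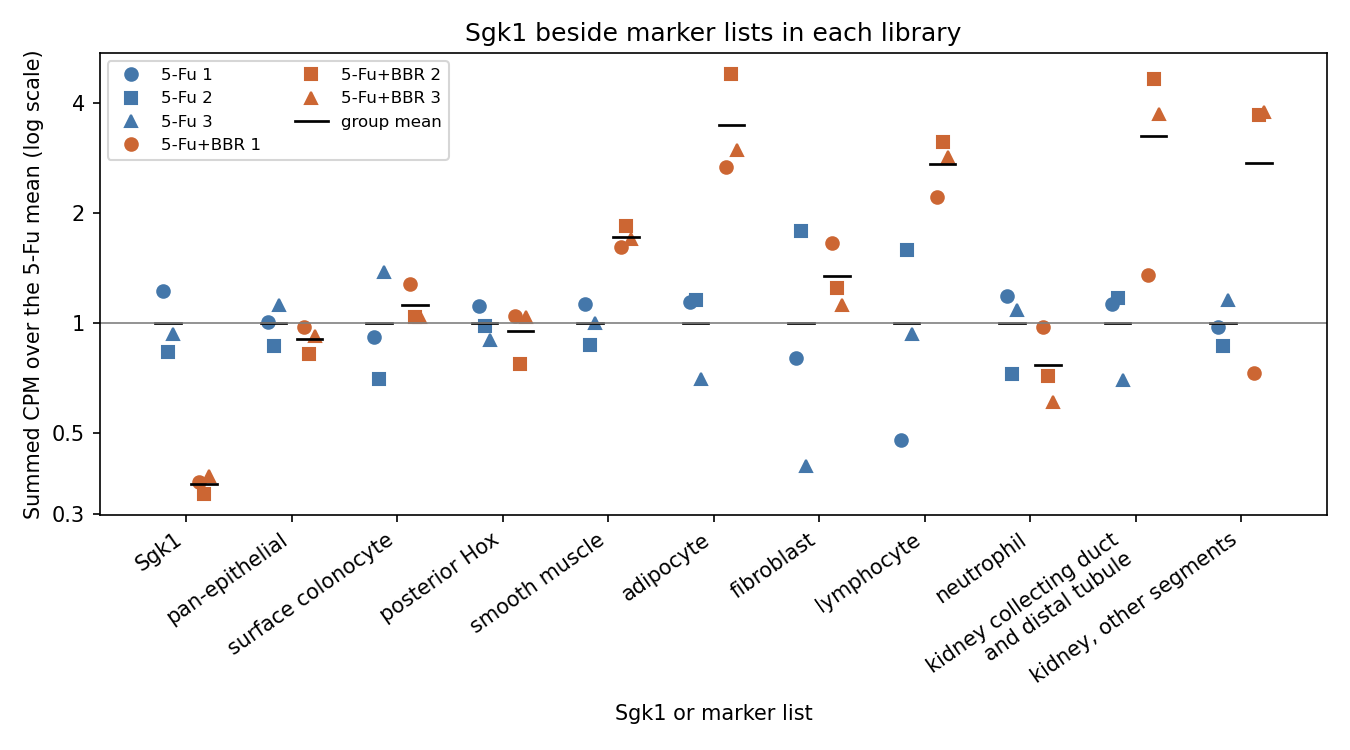
CPM of Sgk1, and summed CPM of marker lists, in each library relative to the mean of the 5-Fu libraries (log axis). Blue is 5-Fu, orange 5-Fu+BBR, shapes are replicate numbers and bars are group means. Sgk1 lies at 0.341 to 0.382 in 5-Fu+BBR, pan-epithelial markers at 0.823 to 0.978, and kidney markers outside the collecting duct at 0.733, 3.73 and 3.79. Most of the 5-Fu sum of that last list is Nphs1. Its log2 fold change was negative (-0.51), while those of the other 8 tested genes of the list were positive.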

How the data were processed

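The build is GRCm38, per the submitters' processing notes, which also list StringTie 1.3.4d, HISAT2 2.0.4 and cutadapt 1.9 beside edgeR, DESeq2 and UMI-tools, without saying what each did. No source used here gives the annotation release. Per the labels' protocols, libraries were polyadenylated, strand-marked and carried molecular identifiers. The authors deposited estimated counts, as whole numbers, and FPKM for each library. In each library, at least 92.1% of 1-transcript genes above 50 counts fitted a check of the counts against FPKM. For these the deposited estimated count was within 2% of FPKM times its GENCODE M21 length and a library constant. Counts and FPKM thus hold the same measurement for these genes, and the check cannot tell how either was made.

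Counts were used as deposited, filtered with filterByExpr, scaled with TMM and then fitted in edgeR 4.0.16 (robust quasi-likelihood, two-sided, Benjamini-Hochberg adjustment over 20101 genes, no covariates) in R 4.3.3. SE is the absolute log2 fold change over the square root of F. CPM use TMM-adjusted library sizes. The floor for a group at 0 is 12 counts, 3 fragments at an assumed 4 counts each. Every 2 libraries differed by more than sampling noise (chi-square per gene of at least 73.9). Alternatives used DESeq2 1.42.0 and limma 3.58.1, and tables and plots matplotlib 3.10.9, pandas 2.3.3 and Python 3.11.15. The fit was tested on simulated data.

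The members, lists and tests were chosen with earlier results of these data known. From each list the genes that passed, otherwise the 3 with the smallest p, were named, and the 5 genes most like Sgk1; some results are not reported here. Alternatives were a replicate block, DESeq2 size factors, scaling to pan-epithelial markers, no filter, a filter of 50 counts in 3 libraries, DESeq2, limma-voom, limma-trend on log2(FPKM + 1) and log2(FPKM + 0.1) with an FPKM of at least 1 in 3 libraries, counts divided by 4, leaving out each library, and 5-Fu+BBR replicate 1 alone against 5-Fu.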

Additional observations from a re-analysis of the deposited data

How the results depend on the processing

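The log2 fold change of Sgk1 was negative in all 17 alternatives, between -1.57 and -1.29, and its adjusted p stayed below 0.05 in 13. It did not without 5-Fu replicate 1, 5-Fu+BBR replicate 2 or 5-Fu+BBR replicate 3, nor for 5-Fu+BBR replicate 1 alone against 5-Fu (-1.45, adjusted p = 0.559); the last has 1 sample in a group, assumed to vary like the others. Leaving out 1 library gave -1.57 to -1.29 for Sgk1 and 0 to 1 members called. With replicate 1 alone 0 members were called. The count of all genes called, 15 with edgeR, was 113 with a replicate block, 77 with no filter, 1226 with DESeq2, 0 to 159 when 1 library was left out and 0 with replicate 1 alone; the 0 comes with 1331 genes at an unadjusted p under 0.05, and 2062 and 1888 without 5-Fu replicate 1 or 5-Fu+BBR replicate 2.

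Same-numbered libraries of the groups deviated together with correlations of 0.03, 0.07 and 0.21. With 3 libraries per group these values cannot settle if same-numbered libraries are paired. With the block Sgk1 was at -1.44 (adjusted p = 0.0202, edgeR) and Fxyd4 at -3.72 (adjusted p = 0.0144, edgeR). Not every library correlated best with its own number.

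Directions turned for 6 of the named genes. Scnn1a was at 0.030 when scaled to pan-epithelial markers, 0.14 without 5-Fu replicate 3, 0.12 without 5-Fu+BBR replicate 2 and 0.26 with replicate 1 alone, with a range of -0.20 to 0.14 when 1 library was left out. Hsd11b2 was at 0.085 without 5-Fu replicate 3 and 0.069 with replicate 1 alone, and Nr3c2 at -0.020 without 5-Fu replicate 2; with 1 library left out they ranged from -0.35 to 0.085 and from -0.020 to 0.20. With replicate 1 alone, Scnn1b was at 0.21, St14 at 0.089 and Kcne3 at -0.18. Fkbp5 passed in 3 and Fxyd4 in 2 of 17 alternatives. The cause was not tested. The SE of Scnn1g was 0.66, and 0.21 with the block (adjusted p = 0.0646).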
